A study of Mus musculus with 8 samples.

Results

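The collagen chain genes of the mouse were examined in cultured forelimb buds, as every gene of the deposited expression table whose symbol reads Col, a number, a and a number. This rule took 44 of the 21692 genes in the table, and 40 of them had enough reads to be tested. By the form of the assembled protein they were grouped into 11 fibrillar chains, 9 fibril-associated chains with interrupted helices (FACIT), 9 chains of basement membranes, 3 network-forming chains, 6 chains of beaded filaments, 4 transmembrane chains and 2 others. The buds came from CD1 embryos on gestation day 13 and were held in culture for 24 h. The 4 vehicle libraries received dimethyl sulfoxide (DMSO), and the 4 OPE libraries received a mixture of organophosphate esters (OPE), which are flame retardants and plasticisers, composed after Canadian house dust and diluted 1 in 300000. No genetic change is named for either group, and the labels do not say how many buds or embryos went into a library. Libraries are named vehicle 1 to 4 and OPE 1 to 4. Nothing in the labels says that they came from separate litters or cultures, so each p-value measures the spread between these libraries, which may be technical.

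Collagens are the main fibrous proteins of the extracellular matrix. Their chains repeat glycine at regular steps, which lets them wind into a rope-like helix, and chains of matching type assemble into fibrils, sheets or filaments after the cell has modified and secreted them. In the growing limb, cartilage is built on type II collagen fibrils with types IX and XI, the perichondrium, tendon and early bone on type I, and cartilage cells that enlarge before bone replaces them switch on type X.

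The libraries held between 14986793 and 22006738 reads counted to genes. In a principal component analysis, OPE 3 lay apart from the other libraries along the first axis (62.9, the others -25.6 to 2.4), and OPE 1 along the second (-43.9, the others -13.6 to 23.2). Libraries of a group differed by more than counting noise, with a chi-square per degree of freedom of at least 5.03, so each was kept as a sample. CPM values are read counts relative to the TMM-scaled total, which adjusts the total of a library for its composition, and serve comparisons of a gene between libraries. The deposited FPKM values are also divided by gene length and serve comparisons between genes.

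The glycine repeat of the chains was read from the GRCm38 (mm10) coding sequences as GGN codons repeated every 3 codons, and the length of each coding exon was counted. In the 11 fibrillar chains the longest unbroken run of such triplets was 216 to 344 triplets long, and 21 to 33 coding exons had exactly 54 bases. Col24a1 and Col27a1 had the shortest runs of the class, with 216 and 217 triplets, and the most exons of 54 bases, 33 in each. Among FACIT chains the longest run was 32 to 113 triplets long, and Col22a1 had 113 triplets, as did the 3 type IX chains, with 28 exons of 54 bases against 14 in each of those. Basement membrane chains were broken into 11 to 27 runs of at least 5 triplets, with 1 to 6 exons of 54 bases. The 3 network chains had 59 or 60 triplets in their longest run and carried them in 2 coding exons, neither of 54 bases. Beaded filament chains reached 37 to 87 triplets and transmembrane chains 40 to 55, with 44 in Col13a1.

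The first regular exon of 54 bases in 5 genes shows the unit behind these counts, for the abundant fibrillar chains Col1a1 and Col2a1 and for Col24a1, Col22a1 and Col13a1, from 3 classes, which were lower with OPE. The sequences are from GENCODE release M21 on GRCm38, 5′ to 3′ on the coding strand, and capitals mark the GGN codon that opens each repeat of 9 bases.
Col1a1 (chr11:94939904-94939957, + strand, coding exon 8): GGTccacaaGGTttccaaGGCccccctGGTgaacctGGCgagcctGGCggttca
Col2a1 (chr15:97998545-97998598, - strand, coding exon 6): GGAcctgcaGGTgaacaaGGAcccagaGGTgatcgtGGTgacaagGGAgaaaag
Col24a1 (chr3:145320661-145320714, + strand, coding exon 4): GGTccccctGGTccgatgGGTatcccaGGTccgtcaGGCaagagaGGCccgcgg
Col22a1 (chr15:71952523-71952576, - strand, coding exon 12): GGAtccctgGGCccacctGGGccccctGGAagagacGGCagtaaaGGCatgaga
Col13a1 (chr10:61869524-61869577, - strand, coding exon 24): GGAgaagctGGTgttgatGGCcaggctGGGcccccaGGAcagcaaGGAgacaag
The 5 exons were picked for a GGN codon at the start of every 9 bases, so that all of them show it is not a result.

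**Figure D1:**
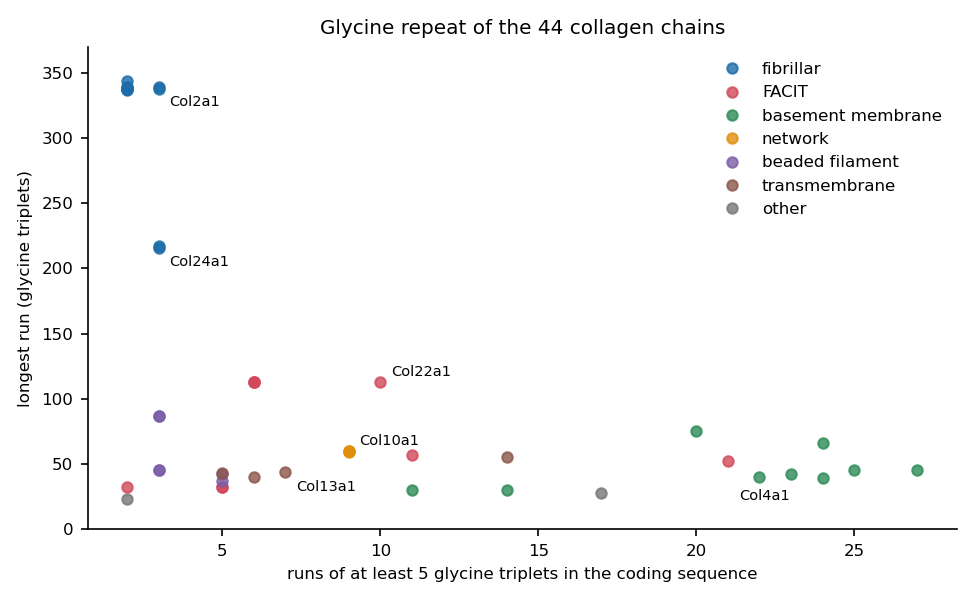
Longest run of glycine triplets (y axis, triplets) against the number of runs of at least 5 triplets (x axis) for the 44 chains, 1 point a gene, coloured by class. Fibrillar chains sit at the top left with 216 to 344 triplets in 2 or 3 runs, and basement membrane chains spread to the right with up to 27 runs.

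Upstream sequence was taken from RefSeq (GRCm38.p6), which gave 38 promoters for 35 of the 44 genes. The 250 bases before the start site of Col10a1, Col13a1 and Col24a1 are printed because these genes passed the test described below. Col22a1 also passed but had no promoter in this source, and neither had the abundant Col1a1 and Col2a1. Capitals mark the TATA letters TATAAA, searched on both strands.
Col10a1 (chr10:34389731-34389980, + strand): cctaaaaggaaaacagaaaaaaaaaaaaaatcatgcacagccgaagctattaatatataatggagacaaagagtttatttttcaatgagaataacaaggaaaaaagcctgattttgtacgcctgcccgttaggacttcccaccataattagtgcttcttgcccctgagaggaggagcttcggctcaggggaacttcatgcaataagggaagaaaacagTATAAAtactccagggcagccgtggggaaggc
Col13a1 (chr10:61979109-61979358, - strand): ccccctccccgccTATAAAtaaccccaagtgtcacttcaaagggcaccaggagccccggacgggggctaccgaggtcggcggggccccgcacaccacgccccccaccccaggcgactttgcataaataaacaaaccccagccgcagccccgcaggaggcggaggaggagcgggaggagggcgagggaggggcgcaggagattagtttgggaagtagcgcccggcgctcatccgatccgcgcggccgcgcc
Col24a1 (chr3:145292222-145292471, + strand): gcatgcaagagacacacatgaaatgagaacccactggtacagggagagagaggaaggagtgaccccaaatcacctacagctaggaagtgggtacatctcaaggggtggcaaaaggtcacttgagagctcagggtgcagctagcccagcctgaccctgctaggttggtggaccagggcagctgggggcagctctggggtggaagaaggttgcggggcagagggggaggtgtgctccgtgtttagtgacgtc
Counted from the start site, the match began at position -32 in Col10a1 and at position -237 in Col13a1. The stretch of Col24a1 held no match. The letters TATAAA stood in 5 of the 38 collagen promoters, or 13.2%, and in 12.4% of all 32851 promoters of the same length. The RUNX letters ACCACA stood in 3 collagen promoters, or 7.89%, against 14.0% of all promoters, and in none of the 3 printed here. The SOX letters ACAAT stood in 2, or 5.26%, against 27.7%, and the AP-1 letters TGANTCA in 1, or 2.63%, against 6.75%. The share of G and C letters in the 38 ran from 35.2% in Col3a1 to 76.4% in Col5a1. The 2 promoters with SOX letters, of Col3a1 and Col28a1 (40.4%), had the lowest shares of the 38. This share was not compared with that of all promoters. No match overlaps another in the printed stretches, and a match is a description of the letters, not of a bound site.

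Cartilage and connective tissue collagens dominated the levels in both groups. Col2a1, the type II chain of cartilage, had a mean of 1232.5 FPKM over the 8 libraries and ranked 23rd of all genes in the table. The type I chains Col1a1 and Col1a2 followed with 447 and 413 FPKM, the type IX chain Col9a2 with 333 FPKM and the type III chain Col3a1 with 321 FPKM. By reads, Col2a1 made up 27.0% of all collagen reads, and the 4 genes Col2a1, Col1a1, Col1a2 and Col3a1 together 55.4%. At the other end, Col24a1 and Col13a1 had means of 3.36 and 3.72 FPKM, Col22a1 1.82 FPKM and Col5a3 0.441 FPKM. Col10a1 averaged 6.32 FPKM, a rank of 8608 among all genes. Within a class the range was wide: fibrillar means ran from 0.441 to 1232.5 FPKM and FACIT means from 1.07 to 333 FPKM.

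**Figure D2:**
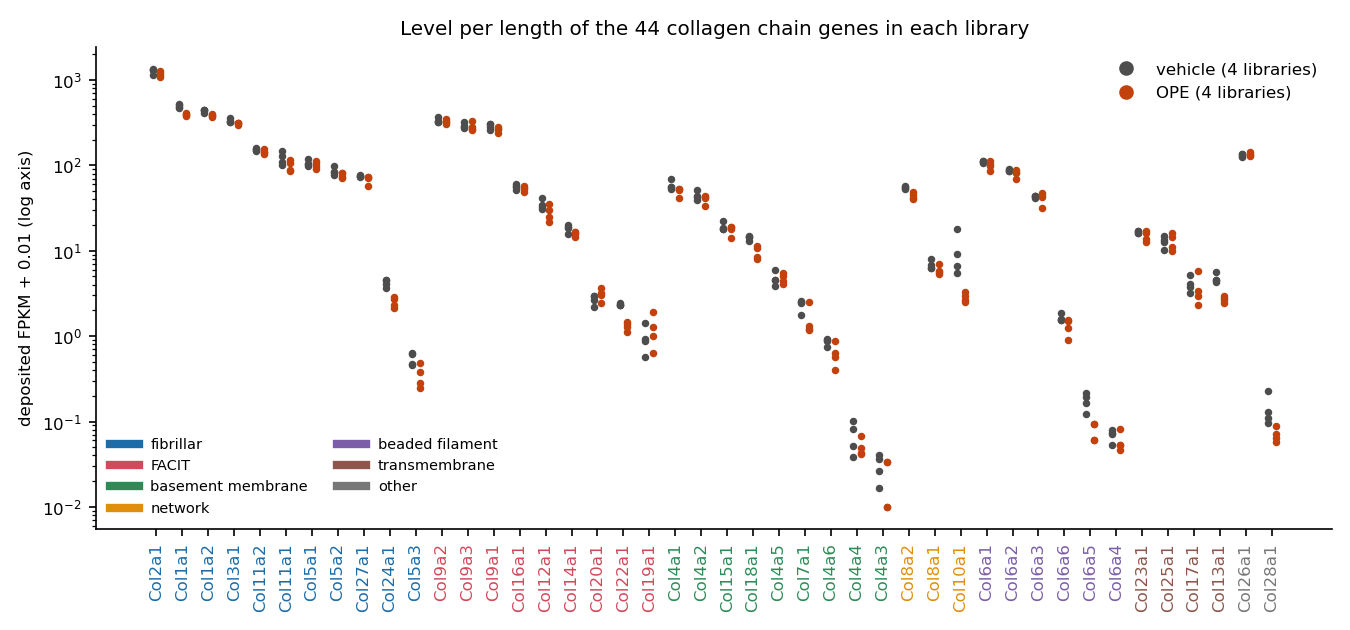
Deposited FPKM plus 0.01 of each of the 44 collagen chain genes (log axis), 1 point a library, grey for the 4 vehicle and orange for the 4 OPE libraries, with gene names coloured by class. Levels span from a mean of 1232.5 FPKM for Col2a1 to libraries listed at 0 for Col4a3. In FPKM, which is not TMM-scaled, 33 of the 44 genes overlap between groups. The other 11, Col1a1, Col1a2, Col3a1, Col24a1, Col22a1, Col18a1, Col8a2, Col10a1, Col6a5, Col13a1 and Col28a1, are lower in every OPE library. The share of all genes was not counted in FPKM, so the 11 have no background on that scale. With library totals and no TMM, 58% of all genes had a log2 fold change below 0, against 47.2% with TMM. In CPM Col1a2 and Col3a1 overlap, and 20% of the collagens tested lie lower, against 5.44% of all genes.

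Among the less abundant chains 4, 1 each of the fibrillar, FACIT, network and transmembrane classes, were lower with OPE, and no collagen was higher past the test. Counts were tested with edgeR's quasi-likelihood test across 15517 genes, with Benjamini-Hochberg adjustment at 0.05 over all of them. Col22a1, Col24a1, Col13a1 and Col10a1 passed, which is 4 of 40 or 10%, where 0.438% of all genes passed as lower, 0.0387% as higher and 0.477% in either direction. At an unadjusted p under 0.05, 10 collagens of 40 were lower and 0 were higher, against 7.31% lower and 5.85% higher among all genes. In 8 collagens, or 20%, every OPE library lay below every vehicle library, against 5.44% of all genes, and in 0 every OPE library lay above, against 4.05%. The log2 fold change, OPE over vehicle, was below 0 in 33 collagens, or 82.5%, and above 0 in 7, against 47.2% and 52.8% of all genes. Its median was -0.11 over the 40 collagens and 0.01 over all genes. In bulk tissue, fewer cells of a type and less RNA per cell cannot be told apart.

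Collagen genes are long, and with a trend of gene length removed the medians of the collagens and of all genes were both higher. Before, they were -0.11 and 0.01. The median gene length in the table was 5989 bases for the collagens tested and 3065 bases for all genes tested. With a trend of log gene length taken out of each library, 25 of the 40 collagens stayed below 0, where 38.8% of all genes were below 0, and the collagen median was -0.03 beside 0.05 for all genes. Under that setting Col22a1, Col24a1 and Col13a1 passed, at an edgeR adjusted p of 0.0437, 0.0098 and 0.0170, against 1.1% of all genes lower and 0.973% higher. Col10a1 gave an edgeR adjusted p of 0.0653 there.

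**Figure D3:**
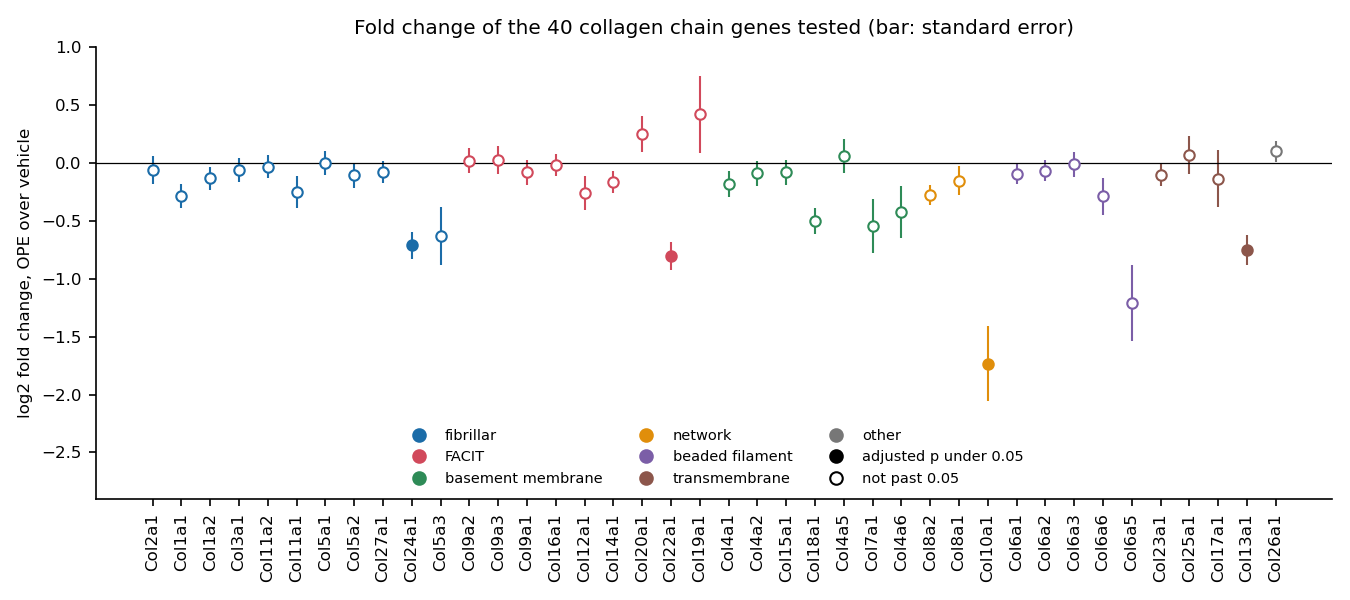
Log2 fold change of OPE over vehicle from edgeR for the 40 collagen chain genes tested, with its standard error as the bar, coloured by class and filled where the adjusted p was under 0.05. The 4 filled points, Col24a1, Col22a1, Col10a1 and Col13a1, lie between -1.73 and -0.71, while most abundant chains lie within 0.3 of 0.

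Among fibrillar chains, Col24a1 alone passed the test. The gene encodes a minor fibrillar collagen known from bone-forming regions. Its level was 32.2, 25.8, 31.9 and 28.8 CPM in vehicle 1 to 4 and 19.3, 16.5, 16.4 and 20.2 CPM in OPE 1 to 4. All 4 OPE libraries lay below all 4 vehicle libraries, and the lowest vehicle library was well above the highest OPE library. This gave a log2 fold change of -0.71 ± 0.12 (SE, n = 4 and 4, edgeR adjusted p = 0.0388).

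Col1a1, the major chain of bone, tendon and skin collagen, stood at 2877, 2970, 3046 and 2732 CPM with vehicle and at 2302, 2378, 2425 and 2438 CPM with OPE. The groups did not overlap, and each spread over a narrow range. The log2 fold change of -0.28 ± 0.10 did not pass the adjustment (edgeR adjusted p = 0.252). It passed with DESeq2, with voom sample weights and without OPE 3, and its adjusted p over the alternatives ran from 0.0053 to 0.525. Its partner Col1a2 had -0.13 ± 0.10 and overlapping groups. Col5a3, a rare type V chain, had 3.84, 3.67, 2.72 and 2.80 CPM with vehicle and 1.48, 2.25, 1.8 and 2.93 CPM with OPE. OPE 4 lay among the vehicle libraries for this gene, and the log2 fold change of -0.63 ± 0.25 had an edgeR adjusted p of 0.313.

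The remaining fibrillar chains showed smaller differences. Col2a1 had 6833, 6477, 6657 and 5728 CPM with vehicle and 6644, 5874, 5940 and 6180 CPM with OPE, which overlap. Its log2 fold change was -0.06 ± 0.12, with a 95% interval from -0.32 to 0.20. For the type XI chains that join type II fibrils, Col11a1 gave -0.25 ± 0.14 and Col11a2 -0.03 ± 0.10. The type V chains Col5a1 and Col5a2, which help to start type I fibrils, gave -0.0004 ± 0.10 and -0.11 ± 0.11. Col3a1, of soft connective tissue, gave -0.06 ± 0.10, and Col27a1, a cartilage collagen of the same branch as Col24a1, gave -0.08 ± 0.10. All 11 fibrillar estimates were below 0, where 47.2% of all genes were, with a median of -0.11, and 1 passed. With the length trend removed 5 of the 11, Col2a1, Col3a1, Col5a1, Col11a2 and Col27a1, lay above 0, and Col5a1 changed sign in 8 of 20 alternatives.

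Among FACIT chains, which decorate fibrils, Col22a1 was the gene that passed. It encodes a collagen of tissue junctions such as the border of muscle and tendon. Levels were 19.9, 21.2, 20.1 and 20.1 CPM in vehicle 1 to 4 and 11.1, 9.79, 12.9 and 12.7 CPM in OPE 1 to 4. The 4 vehicle values lay close together, and the 4 OPE values were all lower. In log2 terms the change was -0.81 ± 0.12 (SE, n = 4 and 4, edgeR adjusted p = 0.0209).

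The other 8 FACIT chains lay on both sides of 0. Col9a2 had 953, 1045, 940 and 932 CPM with vehicle and 955, 975, 1112 and 883 CPM with OPE. Col9a3 had 847, 952, 864 and 818 CPM with vehicle and 816, 850, 1079 and 795 CPM with OPE. In both of these type IX chains, which coat cartilage fibrils, OPE 3 was the highest library and the groups overlapped. Their log2 fold changes were 0.02 ± 0.11 and 0.02 ± 0.12, and that of Col9a1 was -0.08 ± 0.11. Direction for Col9a2 and Col9a3 turned below 0 when libraries were scaled by their totals or by the upper quartile. Col12a1 and Col14a1, which bind type I fibrils in dense connective tissue, gave -0.26 ± 0.15 and -0.17 ± 0.10. Col16a1 gave -0.02 ± 0.10, Col19a1 0.42 ± 0.33 and Col20a1 0.25 ± 0.15, and none of the 3 passed. The class median was -0.02, with 5 of 9 estimates below 0.

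Basement membrane chains held no gene past the adjusted threshold. Col18a1, a heparan sulphate collagen whose end fragment is endostatin, came nearest. It had 90.6, 92.1, 80.2 and 90.1 CPM with vehicle and 51.1, 72.2, 57.8 and 68.2 CPM with OPE. The groups did not overlap, OPE 1 was lowest and the log2 fold change was -0.50 ± 0.12 (edgeR adjusted p = 0.0877). Its adjusted p ran from 0.0081 to 0.243 over the alternatives, and it passed in the same 3 as Col1a1. Col7a1, which forms the anchoring fibrils under the epidermis, had 23.7, 22.8, 16.1 and 22.0 CPM with vehicle and 12.3, 23.0, 11.9 and 10.9 CPM with OPE. OPE 2 stood among the vehicle libraries while the other 3 were lower, and the log2 fold change of -0.54 ± 0.23 had an edgeR adjusted p of 0.343.

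The paired type IV chains of nearly all basement membranes overlapped between groups. Col4a1 had 455, 358, 365 and 340 CPM with vehicle and 356, 336, 296 and 350 CPM with OPE. Col4a2 had 332, 277, 270 and 251 CPM with vehicle and 285, 277, 235 and 264 CPM with OPE. For both, vehicle 1 was the highest library and OPE 3 the lowest. The log2 fold changes were -0.18 ± 0.11 and -0.09 ± 0.11, with -0.08 ± 0.11 for Col15a1, 0.06 ± 0.15 for Col4a5 and -0.42 ± 0.22 for Col4a6. As a share of all reads, basement membrane chains made up 0.0921% ± 0.0103 (SD, n = 4) with vehicle and 0.0792% ± 0.0085 (SD, n = 4) with OPE. On read totals these shares did not overlap between groups, by 0.0847% against 0.0842%, but on TMM-scaled totals they overlapped, with 0.0827% in vehicle 4 and 0.0845% in OPE 1.

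In the network class Col10a1, the type X chain of enlarging cartilage cells, showed the largest decrease of the 40 collagens tested with all 8 libraries. Vehicle 1 to 4 had 17.1, 28.2, 55.2 and 20.1 CPM, and OPE 1 to 4 had 8.26, 7.87, 9.99 and 10.3 CPM. The vehicle libraries were widely spread, with vehicle 3 far above the rest, whereas the OPE libraries lay close together below them. The log2 fold change was -1.73 ± 0.33 (SE, n = 4 and 4, edgeR adjusted p = 0.0493). Without vehicle 3 it was -1.27 at an edgeR adjusted p of 0.0485, and the call was lost when any other library was left out. It was also lost with no filter, with a filter of 1 CPM, with limma-voom (with or without sample weights) and with the length trend removed, at adjusted p from 0.0509 to 0.0805. An exon of Nt5dc1 on the opposite strand shares 18 bases with Col10a1, and Nt5dc1 had 2772 reads where Col10a1 had 3084. The strand setting of the counting was not given in the labels or headers, and reads of the 2 genes in that overlap cannot be told apart.

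The type VIII chains, known from vessel walls and the cornea, were also measured. Col8a2 had 228, 228, 246 and 238 CPM with vehicle and 197, 175, 195 and 209 CPM with OPE. The groups did not overlap, and the log2 fold change of -0.28 ± 0.08 had an edgeR adjusted p of 0.184. It passed with voom sample weights alone. Col8a1 had 40.4, 31.2, 34.5 and 31.6 CPM with vehicle and 29.1, 26.9, 31.9 and 35.9 CPM with OPE. Its groups overlapped, with OPE 4 above 3 of the vehicle libraries, and the log2 fold change was -0.15 ± 0.12. The class as a whole held 0.0305% ± 0.00245 (SD, n = 4) of all reads with vehicle and 0.0230% ± 0.00196 (SD, n = 4) with OPE, without overlap on read totals or on TMM-scaled totals.

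Beaded filament chains of type VI collagen, which surround cells of cartilage, muscle and tendon, showed no call. Col6a1 had 461, 454, 433 and 443 CPM with vehicle and 405, 425, 383 and 465 CPM with OPE. Col6a2 had 439, 426, 418 and 408 CPM with vehicle and 402, 432, 368 and 411 CPM with OPE. In both, OPE 3 was the lowest library and the groups overlapped. The log2 fold changes were -0.09 ± 0.09 and -0.07 ± 0.09, and those of Col6a3 and Col6a6 were -0.01 ± 0.11 and -0.29 ± 0.16. The rare chain Col6a5 had 1.69, 1.02, 1.40 and 1.86 CPM with vehicle and 0.785, 0.463, 0.832 and 0.466 CPM with OPE. Its groups did not overlap, but it rests on 165 reads in all, and the log2 fold change of -1.21 ± 0.33 had an edgeR adjusted p of 0.134.

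Of the transmembrane chains, Col13a1 passed. It encodes a cell-surface collagen found at adhesion sites and at the junction of nerve and muscle. Levels were 13.5, 14.1, 14.0 and 17.3 CPM in vehicle 1 to 4 and 8.49, 9.33, 9.43 and 7.73 CPM in OPE 1 to 4. Every OPE library lay below the lowest vehicle library. Its log2 fold change was -0.75 ± 0.13 (SE, n = 4 and 4, edgeR adjusted p = 0.0388).

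Col23a1 and Col25a1 were the most abundant transmembrane chains. Col23a1 had 91.7, 95.1, 89.8 and 93.8 CPM with vehicle and 78.1, 91.6, 77.8 and 96.9 CPM with OPE. Col25a1, which takes part in motor innervation of muscle, had 99.8, 66.6, 88.0 and 82.1 CPM with vehicle and 97.4, 65.5, 80.9 and 109 CPM with OPE. Both overlapped between groups, with log2 fold changes of -0.11 ± 0.09 and 0.07 ± 0.16. Col17a1, the collagen of epidermal hemidesmosomes, gave -0.14 ± 0.25.

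Col26a1, a short chain outside these classes, had 350, 370, 371 and 351 CPM with vehicle and 362, 381, 433 and 371 CPM with OPE. OPE 3 was its highest library, and the log2 fold change was 0.10 ± 0.09. The remaining 4 chains had too few reads for the test. With OPE and with vehicle, Col6a4 had 24 and 35 reads, Col4a4 27 and 48, Col4a3 6 and 14, and Col28a1 17 and 43. Scaled for depth, the ratio of OPE to vehicle reads was 0.468 for Col28a1, with an exact 95% binomial interval from 0.25 to 0.839. The intervals of the other 3, from 0.16 to 1.41 at their widest, included 1. The intervals treat reads as independent, which PCR copies are not, and so cover counting error alone.

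**Figure D4:**
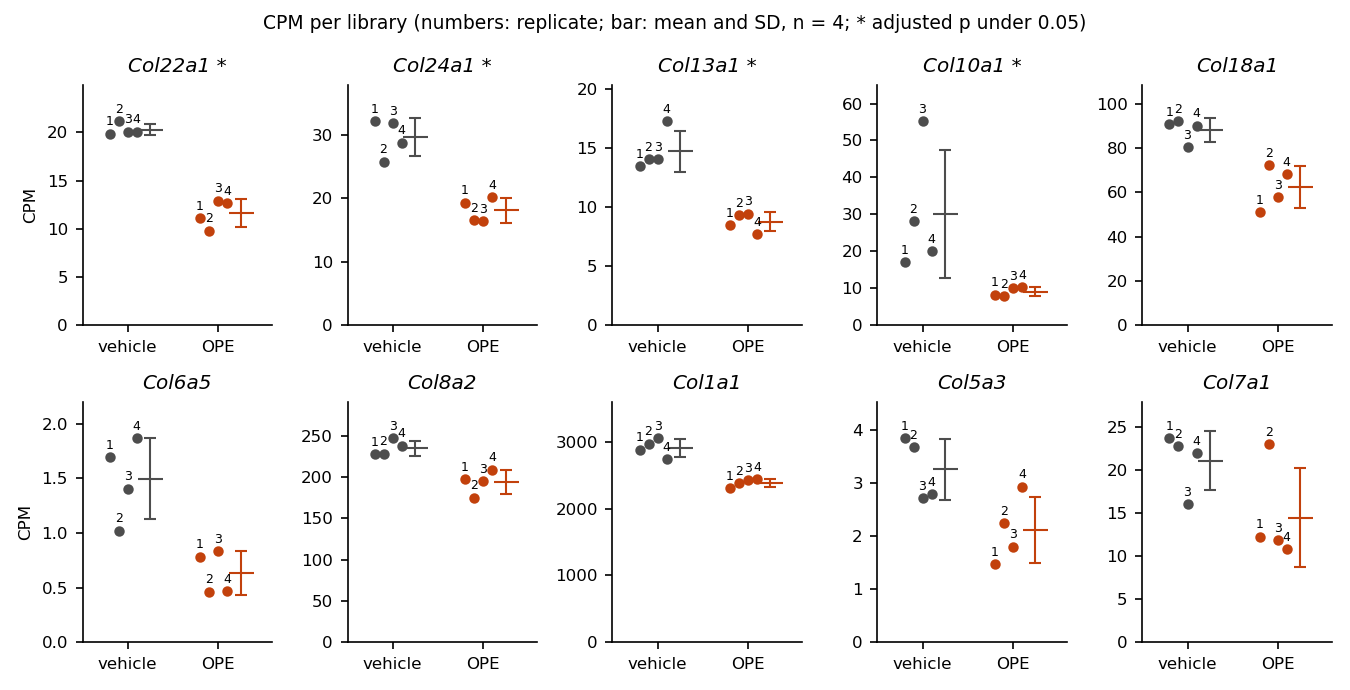
CPM in each library (numbered by replicate) for the 10 collagen chain genes with an unadjusted p under 0.05, with the mean and SD of each group (n = 4). In 8 panels the OPE points lie below all vehicle points, while OPE 4 in Col5a3 and OPE 2 in Col7a1 reach into the vehicle range.

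Leaving out libraries changed these calls. Col22a1 and Col24a1 kept an edgeR adjusted p under 0.05 without OPE 1, OPE 3 or OPE 4, and without both OPE 1 and OPE 3. They lost it without any 1 vehicle library or without OPE 2, where the edgeR adjusted p ran from 0.0529 to 0.11 for Col22a1 and from 0.0808 to 0.125 for Col24a1. Col13a1 kept the call without OPE 3 or OPE 4 and otherwise had an edgeR adjusted p from 0.0756 to 0.124 when 1 library was left out. Col10a1 kept it only without vehicle 3, and the edgeR adjusted p ran from 0.0549 to 0.14 when any other 1 library was left out. Without both OPE 1 and OPE 3, Col13a1 and Col10a1 lost the call, Col10a1 at an edgeR adjusted p of 0.472. With 1 library left out, the log2 fold change stayed between -0.86 and -0.73 for Col22a1, -0.77 and -0.67 for Col24a1, -0.80 and -0.67 for Col13a1, and -1.93 and -1.27 for Col10a1. Without OPE 3 alone, 5 collagens of 40 passed as lower, with Col1a1 and Col18a1 beside Col22a1, Col24a1 and Col13a1, where 1.43% of all genes passed as lower and 0.518% as higher.

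Chains that share a molecule or a tissue were set against each other within each library, in FPKM. Col1a1 over Col1a2, the chains of type I collagen, was 1.13 ± 0.0326 (SD, n = 4) with vehicle and 1.02 ± 0.0142 (SD, n = 4) with OPE. The lowest vehicle ratio of 1.09 lay above the highest OPE ratio of 1.03. Col3a1 over Col1a1 was 0.670 ± 0.0443 with vehicle and 0.782 ± 0.0245 with OPE, and here every OPE library was higher. Col24a1 over Col27a1, a pair from the same branch of the fibrillar family, was 0.0562 ± 0.00581 with vehicle and 0.0363 ± 0.00325 with OPE. Col24a1 over Col1a1 went from 0.00849 ± 0.000889 to 0.00631 ± 0.000716. Both Col24a1 ratios were lower in every OPE library than in any vehicle library. Col10a1 over Col2a1, the chain of enlarged cartilage cells against the chain of all cartilage, was 0.00408, 0.00710, 0.0135 and 0.00572 in vehicle 1 to 4 and 0.00203, 0.00219, 0.00274 and 0.00271 in OPE 1 to 4. The vehicle range was wide, but no OPE library reached it.

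The other 11 of 16 ratios overlapped between groups. Col4a1 over Col4a2 was 1.31 ± 0.0349 with vehicle and 1.23 ± 0.0469 with OPE. Col6a1 over Col6a2 was 1.27 ± 0.0259 and 1.25 ± 0.0774, and Col9a3 over Col9a2 was 0.863 ± 0.0181 and 0.864 ± 0.0487. Each ratio that did not overlap holds Col1a1, Col24a1 or Col10a1, whose own CPM did not overlap between groups. Such a ratio therefore restates much of that difference. Ratios carry no test here, and no share over other gene pairs was taken.

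**Figure D5:**
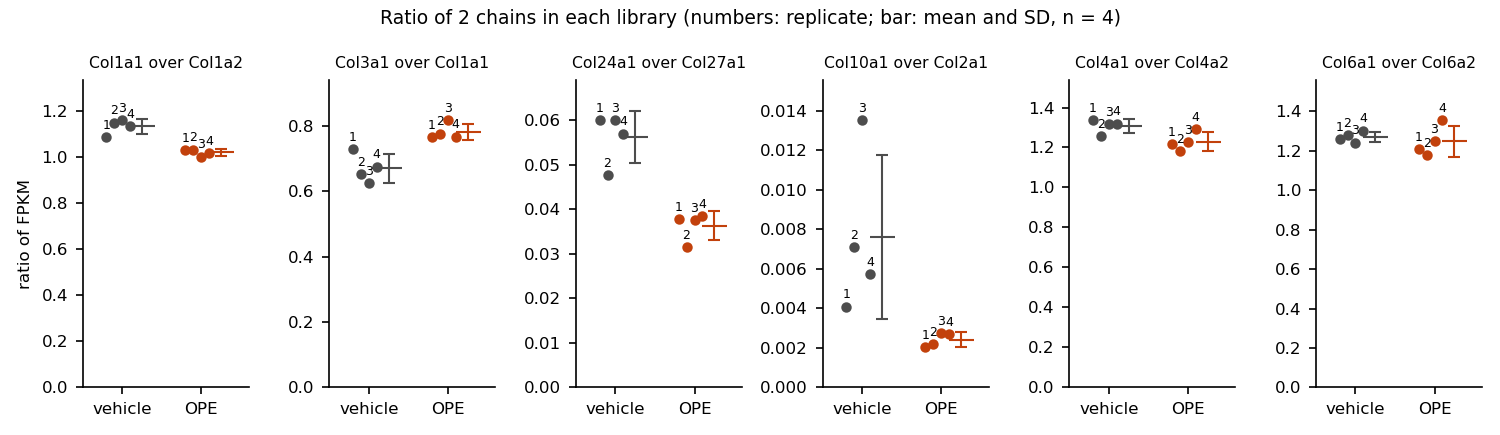
Ratio of FPKM of 2 chains in each library (numbered by replicate) for 6 pairs, with the mean and SD of each group (n = 4). The OPE points lie below all vehicle points for Col1a1 over Col1a2, Col24a1 over Col27a1 and Col10a1 over Col2a1, above them for Col3a1 over Col1a1, and overlap them for the type IV pair, where 3 of the 4 OPE points lie lower, and the type VI pair.

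The share of all reads that fell on collagen genes was 2.46% ± 0.123 (SD, n = 4) with vehicle and 2.21% ± 0.0854 (SD, n = 4) with OPE. On read totals the groups were barely apart, with 2.287% in vehicle 4 and 2.283% in OPE 1, and on TMM-scaled totals they overlapped, with 2.234% in vehicle 4 and 2.297% in OPE 1. Fibrillar chains held 1.76% ± 0.0968 with vehicle and 1.57% ± 0.0695 with OPE, FACIT chains 0.382% ± 0.0181 and 0.357% ± 0.0129, and both overlapped between groups.

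By level, the calls lay among the less abundant chains. Of 22 collagens with a mean of at least 100 CPM, 0 passed and the median log2 fold change was -0.08, where 0.0811% of the 2466 genes at that level passed as lower. Of 18 collagens under 100 CPM, 4 passed and the median was -0.36, where 0.506% of the 13051 genes at that level passed as lower. The 22 abundant collagens had log2 fold changes between -0.28 and 0.10.

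In the authors' deposited table adjusted p-values under 0.05 belonged to 6 of 43 collagens with a value, or 14.0%, beside 476 of 17759 genes, or 2.68%. All 6 were lower with OPE: Col1a1, Col10a1, Col13a1, Col18a1, Col22a1 and Col24a1. The log2 fold change of Col10a1 in the authors' deposited table was -0.99, nearer 0 than the -1.73 fitted from the same counts. The same held for the rare chains Col6a5 (-0.55 against -1.21) and Col5a3 (-0.39 against -0.63). For the abundant Col1a1 the values were -0.27 and -0.28.

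Genes that act on collagen were counted from 4 lists, beside 0.438% of all genes lower and 0.0387% higher past the test. Of 33 genes of collagen synthesis and crosslinking, 1 was lower and 0 higher past the test, with a list median of -0.03. That gene was Pcolce, an enhancer of the protease that trims fibrillar procollagens, with 85.0 ± 3.67 CPM (SD, n = 4) with vehicle and 58.8 ± 4.42 CPM with OPE (log2 fold change -0.53 ± 0.09, edgeR adjusted p = 0.0366). Loxl4, a lysyl oxidase that crosslinks chains, had -1.56 ± 0.35 at an edgeR adjusted p of 0.0873. Of 10 collagen receptors tested 0 passed, and the smallest p belonged to the integrin chains Itga1 (-0.55 ± 0.20, edgeR adjusted p = 0.271) and Itga2 (-0.75 ± 0.44, edgeR adjusted p = 0.511). Of 28 matrix proteins that bind collagen 0 passed, and the small proteoglycans Fmod and Kera came nearest with -0.46 ± 0.11 and -0.50 ± 0.12 (edgeR adjusted p = 0.0994 and 0.102).

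Among 18 regulators of collagen genes, 2 were lower and 0 higher, against 0.438% and 0.0387% of all genes. They were Runx3, a transcription factor of maturing cartilage (-0.78 ± 0.14, edgeR adjusted p = 0.0388), and Sp7, the osteoblast factor osterix (-0.83 ± 0.15, edgeR adjusted p = 0.0452). The medians of the receptor, binding partner and regulator lists were -0.06, -0.12 and -0.07, beside 0.01 for all genes.

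Markers of cell types that the bud could hold moved with the groups in several lists, and their part in the collagen differences was not tested. The summed level of 8 osteoblast markers was 205.8 to 334.3 CPM with vehicle and 80.5 to 130.6 CPM with OPE, with 3 of 7 tested lower (Sp7, Ifitm5 and Alpl). That of 8 markers of hypertrophic cartilage was 314.7 to 502.4 CPM and 254.4 to 323.6 CPM, with Alpl and Runx3 of 7 lower. In that list Ihh and Pth1r had log2 fold changes of 0.32 ± 0.15 and 0.22 ± 0.13, and Ibsp, also an osteoblast marker, went from a mean of 115.7 CPM with vehicle to 11.7 CPM with OPE (log2 fold change -3.33 ± 0.64, edgeR adjusted p = 0.0522). For 8 macrophage markers the sums were 133.7 to 150 CPM and 23.9 to 62.4 CPM, with 6 of 8 lower. For 8 endothelial markers they were 261.3 to 319.9 CPM and 126.4 to 237.7 CPM, with 0 of 8 past the test. The groups did not overlap in the osteoblast, macrophage and endothelial sums. Ibsp made up most of the fall in both the osteoblast and the hypertrophic sum, so these sums are not separate. Of all genes tested, 0.438% passed as lower.

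The 9 chondrocyte markers summed to 2077 to 2670 CPM with vehicle and 1829 to 2259 CPM with OPE, and 8 fibroblast and perichondrium markers to 1958 to 2253 CPM and 1878 to 2107 CPM. Tendon, epidermis, skeletal muscle, Schwann cell and erythroid sums also overlapped between groups, and 0 genes of these 7 lists passed. No marker of any list was without reads in all libraries. The lists share genes: Alpl and Ibsp stand in both the osteoblast and the hypertrophic list. Runx2, Runx3, Sp7, Sox9, Scx, Mkx and Egr1 are both markers and regulators, and Matn1, Matn3, Comp, Fmod, Postn, Dcn and Lum are both markers and binding partners.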

How the data were processed

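Poly-A RNA of 8 libraries was sequenced, 4 vehicle and 4 OPE, grouped by their titles in the labels. Tools listed in the submitters' processing notes are CASAVA 1.8, HTSeq 0.6.1, STAR 2.5 and DESeq2 (entered as version 2), with build mm10. Not given in the sources used here are what each tool did, the annotation release and the strand setting. A table was deposited, in which the authors give read counts per gene. Per the file headers it also holds a normalised signal (the count divided by 1 constant per library), FPKM values, and the authors' log2 fold changes and p-values. The authors' adjusted p-value is missing for 3933 genes and was kept missing.

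Tests on the counts used edgeR 4.0.16 under R 4.3.3 (TMM, filterByExpr, robust quasi-likelihood, two-sided, group as the only term), adjusted by Benjamini-Hochberg over 15517 genes at 0.05. The standard error is the size of the log2 fold change divided by the square root of F. These steps were also tested on simulated data. Of 67 genes changed 1.5-fold, 23 were called, of 67 changed 2-fold, 56, and of 66 changed 4-fold, 65. In that simulation 3 unchanged genes were called, and 0 were called where nothing was changed. A change of 1.5-fold or less can therefore go uncalled. Deposited FPKM served for levels between genes and for ratios; FPKM totals exceed the count totals slightly in 6 libraries.

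The members, classes, gene lists and tests were chosen with earlier results of these data known. Every tested member is named; values in each library are given for members past the threshold, members with an unadjusted p under 0.05 and the 2 of highest mean FPKM in each class; from each related list, the genes past the threshold and the 2 of smallest p are named. The split at 100 CPM and the promoter motifs were chosen after values had been seen. Alternatives changed the scaling (library totals, upper quartile, or the size factors of DESeq2), the filter and the robust option, or used DESeq2 1.42.0 and limma-voom (limma 3.58.1), the latter also with sample weights. Others added offsets for gene length or a block for replicate number, or dropped libraries.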

Additional observations from a re-analysis of the deposited data

Results flagged for a closer look

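In groups of 4 libraries, a highest or lowest value far from the other 3 was looked for in 128 groups, over the members tested, the class shares and the chain ratios. It was met in 9 of them, and chance alone gives about 1 in 20. Col18a1 in vehicle 3 had 80.2 CPM, with the next library at 90.1 CPM. Col7a1 in OPE 2 had 23.0 CPM, with the next at 12.3 CPM. Col15a1 in vehicle 1 had 115.6 CPM, with the next at 94.0 CPM. Col27a1 in OPE 3 had 464 CPM, with the next at 545 CPM. Col13a1 in vehicle 4 had 17.3 CPM, with the next at 14.1 CPM, a value that lies away from the OPE libraries.

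The basement membrane share of reads was 0.0665% in OPE 3, with the next library at 0.0823%. The network share was 0.0341% in vehicle 3, the library in which Col10a1 was also highest, with the next at 0.0296%. The FPKM ratio of Col8a1 over Col8a2 was 0.151 in vehicle 1, with the next at 0.119. The FPKM ratio of Col24a1 over Col27a1 was 0.0315 in OPE 2, with the next at 0.0376. Vehicle 1, vehicle 3, OPE 2 and OPE 3 each gave 2 of these values, and 1 of the 4 collagens that passed, Col13a1, is among them.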

How the results depend on the processing

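In all 20 alternatives 0 collagens were higher past the threshold, and Col22a1, Col24a1, Col13a1 and Col10a1 stayed below 0 in each. Col22a1 and Col24a1 passed in 15 alternatives each, Col13a1 in 12 and Col10a1 in 7, with an adjusted p from 1.18e-05 to 0.472 for Col10a1. Collagens called lower numbered 6 of 43 with DESeq2 and 6 of 40 with voom sample weights. Without both OPE 1 and OPE 3 they numbered 2 of 41. Among all genes, the numbers called lower were 336 of 16221, 314 of 15517 and 62 of 15996, in the same order. When 1 library was left out, 0 to 5 collagens and 6 to 226 of all genes were called lower. The shares of reads by class were also taken on TMM-scaled totals, a choice made after seeing the data, with the effect given beside them. Genes called in all, 74 in the reported fit, were 131 with library totals, 136 with no filter, 504 with DESeq2, 445 with voom sample weights, 321 with the length trend removed and 7 to 308 when 1 library was left out.

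The replicate numbers were not shown to pair the libraries. Deviations of same-numbered libraries from their group means correlated at 0.31, 0.08, 0.01 and 0.09, and libraries 1 and 4 correlated best with their own number. So few correlations cannot exclude a shared litter or culture. With the replicate block 3 of 40 collagens passed as lower, without Col13a1 (edgeR adjusted p = 0.0755). Of 15517 genes 62 passed in all, 56 of them lower, and 44 of the 62 were among the 74.

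Genes never past the threshold that changed sign did so near 0, and the cause was not tested. With the length trend removed Col6a2 gave 0.0087, Col2a1 0.020, Col11a2 0.068, Col3a1 0.033, Col5a1 0.099, Col16a1 0.069, Col27a1 0.0046 and Col6a3 0.064. With voom sample weights Col17a1 gave 0.091, Col5a1 0.025, Col9a3 -0.043, Col15a1 0.013, Col9a2 -0.012, Col4a2 0.0057, Col6a3 0.039 and Col25a1 -0.0018. Without both OPE 1 and OPE 3, Col17a1 gave 0.0066, Col9a3 -0.080, Col9a2 -0.058, Col4a5 -0.042, Col6a3 0.035 and Col23a1 0.027. Col9a3 and Col9a2 gave -0.032 and -0.034 with library totals and -0.0054 and -0.0095 with the upper quartile. Col5a1 gave 0.0016 with the size factors of DESeq2, 0.0022 with DESeq2 and 0.00050 with the replicate block.

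When 1 library was left out, Col17a1 ran from -0.44 to 0.021, Col5a1 from -0.054 to 0.056, Col9a3 from -0.085 to 0.066, Col15a1 from -0.13 to 0.0047, Col9a2 from -0.046 to 0.061, Col4a5 from -0.036 to 0.19, Col16a1 from -0.073 to 0.018, Col6a3 from -0.083 to 0.076 and Col25a1 from -0.053 to 0.19. Depth limits Col6a5 and the 4 untested chains most.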

Other observations

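Several collagen genes lie side by side in the genome (GRCm38, from the annotation), and their fold changes were set beside each other as a description. Col4a1 and Col4a2 start head to head on chromosome 8 with 22 bases of overlap, and had log2 fold changes of -0.18 ± 0.11 and -0.09 ± 0.11. Col4a6 and Col4a5 start head to head on the X chromosome, 1308 bases apart, and had -0.42 ± 0.22 and 0.06 ± 0.15. Col4a4 and Col4a3, 71 bases apart head to head on chromosome 1, had too few reads to be tested. Col3a1 and Col5a2 end towards each other on chromosome 1 with 24614 bases between them, and had -0.06 ± 0.10 and -0.11 ± 0.11. Col9a1 and Col19a1 end towards each other on the same chromosome, 9205 bases apart, at 276 and 1.07 FPKM. The type VI genes Col6a2 and Col6a1 lie in a row on chromosome 10, 85161 bases apart, and differ from the Col6a6, Col6a5 and Col6a4 cluster on chromosome 9 in level, at 84.1 and 105.8 FPKM against 1.46, 0.115 and 0.0543 FPKM.

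Among genes that overlap a collagen, Slc19a1 on the opposite strand had 3723 reads where Col18a1 had 11211, with 0 shared exon bases. The gene 9230112E08Rik, on the same strand as Col20a1 and sharing 79 exon bases with it, had 2366 reads where Col20a1 had 1775. Gm16308, opposite to Col22a1, had 11 reads where Col22a1 had 2413.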
